A study of Homo sapiens with 6 samples.

Results

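Interleukin-6 signals through a surface receptor made of a ligand-binding chain, IL6R, and the shared signal-transducing chain gp130, encoded by IL6ST. LIFR, the receptor of leukaemia inhibitory factor, pairs with the same gp130 chain. Cytokine binding brings together the Janus kinases attached to these chains (JAK1, JAK2 and TYK2), which phosphorylate the transcription factors STAT3 and STAT5B, and the STATs then induce SOCS genes whose products damp the pathway. In liver this route is known for switching on the acute phase plasma proteins and, through the growth hormone receptor, STAT5B and SOCS2, for the hepatic growth hormone response.

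The 10 genes described here (IL6R, IL6ST, LIFR, JAK1, JAK2, TYK2, STAT3, STAT5B, SOCS2 and SOCS3) were picked by symbol from the 58735 genes of an RNA sequencing table. The samples were Hep-G2 cells, a human liver cancer line, carrying either a control hairpin (sh-NC, 3 libraries, genotype given as wild type) or a hairpin against CLGN (sh-CLGN, 3 libraries, genotype given as CLGN knock down). The CLGN product, calmegin, helps proteins fold in the endoplasmic reticulum. By the study's methods, each arm had a lentiviral hairpin of 1 target sequence and went through puromycin selection, so an effect of the CLGN loss and an effect of that particular hairpin cannot be told apart. The labels name no drug for either group. All 6 libraries carry the same day label, which does not show whether the groups were prepared together. Nothing in the sources states that the 3 libraries of a group came from separate cultures, so the p-values measure the spread between these libraries, which may be technical.

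Values are in FPKM, the fragments counted on a gene scaled by its length and by the size of the library. The whole reads behind them were recovered from the gene lengths and summed to between 14955816 and 16244639 per library. CLGN itself stood at 24.1, 21.0 and 26.1 FPKM in the sh-NC libraries and at 9.48, 8.88 and 8.60 FPKM in the sh-CLGN libraries, a log2 fold change of -1.31 (SE 0.081, adjusted p = 8.35e-06, limma), so the labels and the targeted gene go together. Of 12 hepatocyte genes all were detected, with summed levels of 7657 to 7897 FPKM in sh-NC libraries and 7697 to 8238 FPKM in those of sh-CLGN. Among the markers of other cells, PTPRC and CD163 of leukocytes, DCN and THY1 of fibroblasts, and KDR and EMCN of endothelium were at or near 0, whereas collagen genes of the fibroblast list rose: its summed level was 7.10 to 9.06 FPKM in sh-NC and 48.8 to 50.2 FPKM in sh-CLGN. Of its 11 table entries 5 were tested and higher, and 3 of them (COL1A1, COL3A1 and LUM) reached 1 FPKM in the sh-CLGN group only, so that the filter itself favoured that direction. The leukocyte list summed to 70.1 to 78.1 FPKM and to 61.9 to 68.8 FPKM, nearly all of it LYZ, and the endothelial list to 3.37 to 3.70 FPKM and to 2.45 to 2.69 FPKM. Their part in the results on the pathway was not tested.

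A gene was called when its adjusted p in limma was at most 0.05, over the 13074 genes that reached 1 FPKM in 3 or more libraries. All 10 pathway genes passed that filter. JAK2 did so through the sh-CLGN group, having reached 1 FPKM in 3 sh-CLGN libraries and in 1 sh-NC library. By this rule 8 of the 10 genes were called, against 65.8% of all tested genes, and 3 of the 10 also changed by a log2 fold change of at least 1, against 6.28% of all tested genes. The 4 that rose were IL6R, LIFR, JAK2 and SOCS2, and the 4 that fell were JAK1, STAT3, STAT5B and SOCS3, beside 26.7% of all genes called higher and 39.0% called lower. Past the fold, LIFR rose while JAK1 and SOCS3 fell, beside 3.09% of all genes higher and 3.19% lower. IL6ST and TYK2 were not called. The median log2 fold change was -0.08 over the 10 genes and -0.08 over all tested genes. The same 8 genes showed no overlap between the 3 sh-NC and the 3 sh-CLGN libraries, which was so for 70.2% of all tested genes. The share of pathway genes called was thus close to the background of a response that spread over most tested genes. The balance of directions depends on how libraries are scaled: 3496 genes were called higher and 5102 lower here, and 4956 higher and 3421 lower with scaling by read totals, which moved the median of all genes by 0.16 on the log2 scale.

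LIFR, JAK1 and SOCS3 were the genes with the widest changes, and their start regions are shown because STAT dimers are known to bind palindromes of TTC and GAA. RefSeq start windows of 300 bases (250 before to 50 after the start, GRCh38.p14) were found for 9 of the 10 genes, 17 windows in all. They were searched for TTCNNNGAA, for TTCNNGAA and for TTC and GAA with 4 free bases between them, each of which reads the same on both strands. Of the 17 windows, 6 held a match, in LIFR, IL6R, JAK1, STAT3 and SOCS3. The minus-strand windows of the genes with the widest changes that hold a match follow, 5′ to 3′, with the match in capitals.
LIFR, window at chr5:38557418-38557717: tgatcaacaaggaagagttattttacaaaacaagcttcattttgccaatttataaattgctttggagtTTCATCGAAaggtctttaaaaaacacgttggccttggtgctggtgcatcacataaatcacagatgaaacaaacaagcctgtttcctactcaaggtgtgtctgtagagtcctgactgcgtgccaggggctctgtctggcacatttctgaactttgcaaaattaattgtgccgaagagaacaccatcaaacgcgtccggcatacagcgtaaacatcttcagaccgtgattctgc
LIFR, window at chr5:38595356-38595655: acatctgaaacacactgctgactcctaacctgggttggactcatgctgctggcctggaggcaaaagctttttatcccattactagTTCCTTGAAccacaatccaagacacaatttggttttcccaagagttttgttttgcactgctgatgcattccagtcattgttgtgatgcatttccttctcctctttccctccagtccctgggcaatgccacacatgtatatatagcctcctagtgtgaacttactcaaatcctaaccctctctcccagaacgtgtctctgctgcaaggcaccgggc
JAK1, window at chr1:64966500-64966799: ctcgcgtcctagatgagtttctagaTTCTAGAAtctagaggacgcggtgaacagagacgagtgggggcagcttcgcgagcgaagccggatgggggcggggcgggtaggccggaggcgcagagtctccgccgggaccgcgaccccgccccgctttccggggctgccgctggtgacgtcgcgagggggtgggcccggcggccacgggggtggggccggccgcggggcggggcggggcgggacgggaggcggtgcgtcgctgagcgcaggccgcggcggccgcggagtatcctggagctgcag
SOCS3, window at chr17:78360876-78361175: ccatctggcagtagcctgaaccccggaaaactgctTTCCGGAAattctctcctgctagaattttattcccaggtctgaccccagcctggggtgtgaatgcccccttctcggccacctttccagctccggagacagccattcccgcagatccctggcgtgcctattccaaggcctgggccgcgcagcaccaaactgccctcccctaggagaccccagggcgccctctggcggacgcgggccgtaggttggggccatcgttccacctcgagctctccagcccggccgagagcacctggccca
LIFR has 3 windows, JAK1 has 3 and SOCS3 has 2, and those not printed held no match. Each printed LIFR window held a TTCNNNGAA match, beginning 182 and 165 bases before the start. The printed JAK1 and SOCS3 windows each held a TTCNNGAA match, 225 and 215 bases before the start. These starts are those of RefSeq and can differ from the gene spans used in counting. Both printed LIFR windows lie inside the LIFR span (38474963 to 38608354). The printed SOCS3 window lies upstream of the SOCS3 span (78356778 to 78360077), and the other SOCS3 window lies inside it. No window of LIFR or SOCS3 covers the start of its gene span. Over 35116 RefSeq windows, 7.66% held TTCNNNGAA, 7.74% TTCNNGAA and 6.44% the form with 4 free bases, so each form occurs in many other windows. The share with any of the 3 forms was not computed, so the 6 of 17 windows have no like value beside them. A match occurred in genes that rose (LIFR, IL6R) as well as in genes that fell (JAK1, SOCS3, STAT3), and a match is a description of the letters only.

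**Figure D1:**
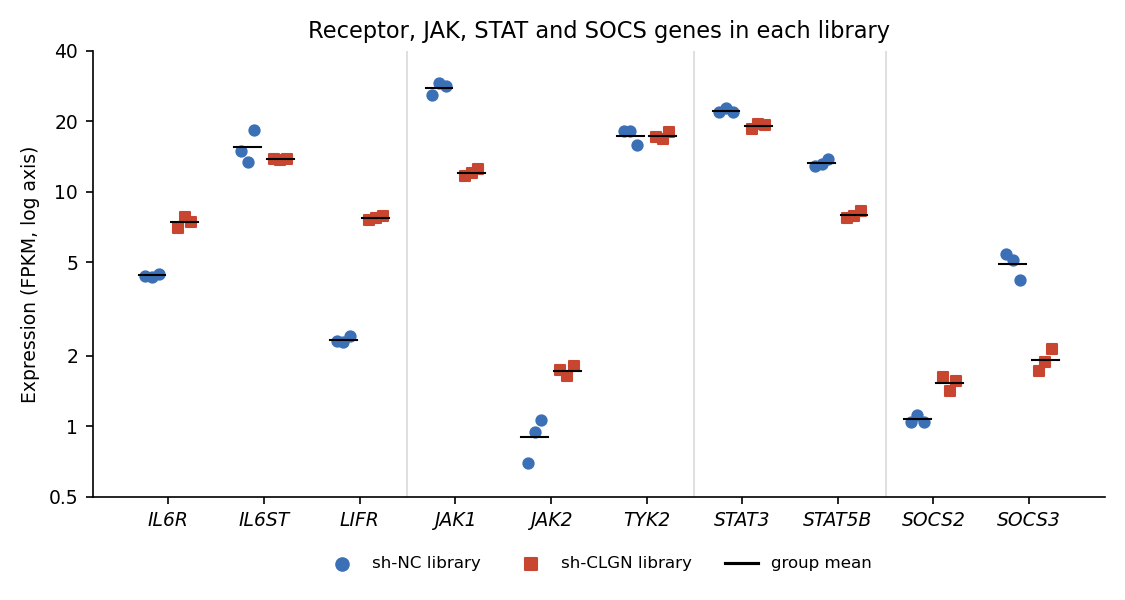
Expression in FPKM (log axis) of the 10 genes, grouped as receptors, kinases, STATs and SOCS genes; each blue circle is a sh-NC library, each red square a sh-CLGN library, and the bar is the mean of 3. LIFR and JAK2 sit higher and JAK1 and SOCS3 lower in every sh-CLGN library, while the libraries of IL6ST and TYK2 overlap.

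Among the receptors, both chains that bind a ligand outside gp130 rose and gp130 itself was not called. IL6R (chromosome 1, 154405193 to 154469450, plus strand), the chain that captures interleukin-6, was at 4.40, 4.33 and 4.48 FPKM in sh-NC and at 7.01, 7.80 and 7.47 FPKM in sh-CLGN. Every sh-CLGN library lay above every sh-NC library, and the mean was 1.69 times as high (log2 fold change 0.64, SE 0.059, adjusted p = 5.08e-05). LIFR (chromosome 5, 38474963 to 38608354, minus strand) was at 2.32, 2.28 and 2.43 FPKM in sh-NC and at 7.57, 7.75 and 7.86 FPKM in sh-CLGN. Both groups were tight and far apart, with 384 to 447 reads against 1505 to 1524 reads. The mean of LIFR was 3.30 times as high in sh-CLGN (log2 fold change 1.38, SE 0.057, adjusted p = 2.00e-06), and it ranked 130 among the 13074 genes from the largest rise. IL6ST (chromosome 5, 55935095 to 55994993, minus strand), the signalling chain shared by the family, was at 15.0, 13.4 and 18.3 FPKM in sh-NC and at 13.7, 13.6 and 13.9 FPKM in sh-CLGN. The sh-NC libraries were spread on both sides of the sh-CLGN libraries, and the log2 fold change of -0.16 had a 95% interval from -0.39 to 0.07 (adjusted p = 0.191). The 1 sh-NC library below the sh-CLGN values, replicate 2, decides this: without it IL6ST fell by 0.25 on the log2 scale (adjusted p = 0.0389). A processed pseudogene on the opposite strand, AC016596.1, lies within the IL6ST span and went from 121 to 78.0 FPKM. Use of strand in the counting is not given in the sources used here, so reads of overlapping genes may not have been told apart.

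The kinases moved in different directions. JAK1 (chromosome 1, 64833229 to 64966504, minus strand), the kinase that gp130 signalling is known to depend on most, was at 25.9, 29.2 and 28.2 FPKM in sh-NC and at 11.7, 12.1 and 12.6 FPKM in sh-CLGN. No library of either group came near the other, and 43.5% of the control mean was left (log2 fold change -1.13, SE 0.059, adjusted p = 4.38e-06). JAK1 ranked 261 among all tested genes from the largest fall. RAVER2, which overlaps JAK1 on the opposite strand, was at 2.53 and 2.04 FPKM. JAK2 (chromosome 9, 4984390 to 5128183, plus strand), best known downstream of the growth hormone and erythropoietin receptors, was low throughout, at 0.697, 0.944 and 1.07 FPKM in sh-NC and at 1.74, 1.64 and 1.81 FPKM in sh-CLGN. These values rest on 60 to 102 reads and on 166 to 182 reads per library. JAK2 rose without overlap, 1.91 times on the FPKM scale and by a log2 fold change of 0.52 (SE 0.10, adjusted p = 0.00218) on the log2(FPKM + 1) scale, which understates the change of a gene this low. With a pseudocount of 0.1 in place of 1, the log2 fold change of JAK2 was 0.88. TYK2 (chromosome 19, 10350529 to 10380676, minus strand), the kinase shared with the interferon and interleukin-12 families, was at 18.2, 18.1 and 15.8 FPKM in sh-NC and at 17.1, 16.9 and 18.0 FPKM in sh-CLGN. Its libraries overlapped and the log2 fold change of -0.0015 had a 95% interval from -0.15 to 0.15 (adjusted p = 0.985). That result depends on the scaling, since TYK2 was called higher after a correction for GC content (log2 fold change 0.25, adjusted p = 0.000361).

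Letters of the hairpin's target also occur outside CLGN. They are shown here for the kinases because JAK1 had the widest fall of the 10 genes on the log2(FPKM + 1) scale. On the FPKM scale SOCS3 fell further, with 38.7% of the control mean left against 43.5% for JAK1. The last bases of the CLGN target sequence, which pair with the start of the antisense strand, give 3 overlapping words of 7 bases, which are ATACCAC, then TACCACA and then ACCACAA. The matches in JAK1 and JAK2 follow with 10 bases on either side, 5′ to 3′ on the gene's strand (GENCODE 29, GRCh38), with the match in capitals.
JAK1, site at chr1:64833677-64833683: accagtctgaATACCACatacgctgca
JAK1, site at chr1:64834279-64834285: tggaaagaatATACCACcatttcatct
JAK2, site at chr9:5127166-5127172: gtatagttttTACCACAgtggatgtat
The 3′ UTR of JAK1 held ATACCAC at 2 places, and at the first of them the letters go on to TACCACA, 1 base further. JAK2, which rose, held TACCACA once. IL6ST held TACCACA in some of its transcripts, and IL6R, STAT5B and SOCS3 held ACCACAA. LIFR, TYK2, STAT3, SOCS2 and CLGN itself held none of the 3 words in the 3′ UTR. Among tested genes with an annotated 3′ UTR, 10.8% held TACCACA, 7.90% ATACCAC and 11.6% ACCACAA. Genes with 1 ATACCAC in the 3′ UTR fell past a log2 fold change of 1 in 7.12% of cases (786 genes, median log2 fold change -0.20), against 3.31% of genes with none (10019 genes, median -0.12). For TACCACA that share was 5.53% (1175 genes, median -0.13), against 3.34% of genes without it (9704 genes, median -0.12). ACCACAA gave 4.35% (1263 genes, median -0.12), beside 3.58% of all tested genes with a 3′ UTR. Of the 74 genes with ATACCAC at 2 or more places, JAK1 had the lowest log2 fold change and was the only gene lower past that size, and their median was -0.15. The part of such matches in the fall of JAK1 was not tested.

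Both STAT genes fell. STAT3 (chromosome 17, 42313324 to 42388568, minus strand), the main STAT below gp130, was at 22.0, 22.8 and 21.9 FPKM in sh-NC and at 18.5, 19.5 and 19.3 FPKM in sh-CLGN. The groups did not overlap, yet the step was small, with 85.9% of the control mean left (log2 fold change -0.21, SE 0.047, adjusted p = 0.00500). This call does not survive several other scalings: after GC correction the log2 fold change of STAT3 was -0.08 (adjusted p = 0.0906). STAT5B (chromosome 17, 42199168 to 42276707, minus strand), the STAT of growth hormone signalling in liver, was at 12.9, 13.2 and 13.8 FPKM in sh-NC and at 7.74, 7.93 and 8.29 FPKM in sh-CLGN. All sh-CLGN libraries were lower, with 60.1% of the control mean left (log2 fold change -0.67, SE 0.053, adjusted p = 2.47e-05). STAT5B shares much of its sequence with its neighbour STAT5A, so the split of reads between them is uncertain. STAT5A was at 3.82, 4.07 and 3.48 FPKM in sh-NC and at 3.11, 3.09 and 3.21 FPKM in sh-CLGN (log2 fold change -0.21, adjusted p = 0.0271, and 0.04 after GC correction). The call of STAT5A held under 4 of 10 other settings and in 1 of 6 fits with a library left out.

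The feedback genes went apart. SOCS3 (chromosome 17, 78356778 to 78360077, minus strand), the STAT3 target that binds gp130 and blocks the Janus kinases, was at 5.45, 5.14 and 4.21 FPKM in sh-NC and at 1.72, 1.87 and 2.13 FPKM in sh-CLGN. Its lowest sh-NC library stood well above its highest sh-CLGN library, and 38.7% of the control mean was left (log2 fold change -1.02, SE 0.099, adjusted p = 6.25e-05). The reads behind this were 178 to 208 and 80 to 94 per library. SOCS3 has a GC content of 68.1%, the highest of the 10 genes, and its log2 fold change was -0.69 after GC correction. SOCS2 (chromosome 12, 93569814 to 93583487, plus strand), the STAT5 target that limits growth hormone signalling, was at 1.05, 1.12 and 1.04 FPKM in sh-NC and at 1.62, 1.41 and 1.56 FPKM in sh-CLGN. The sh-CLGN libraries were all higher, 1.43 times on average (log2 fold change 0.29, SE 0.083, adjusted p = 0.0149). Without sh-CLGN replicate 1 the rise of SOCS2 was no longer called (log2 fold change 0.27, adjusted p = 0.0567). In bulk RNA, fewer cells that express a gene and less RNA per cell cannot be told apart for any of these changes.

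**Figure D2:**
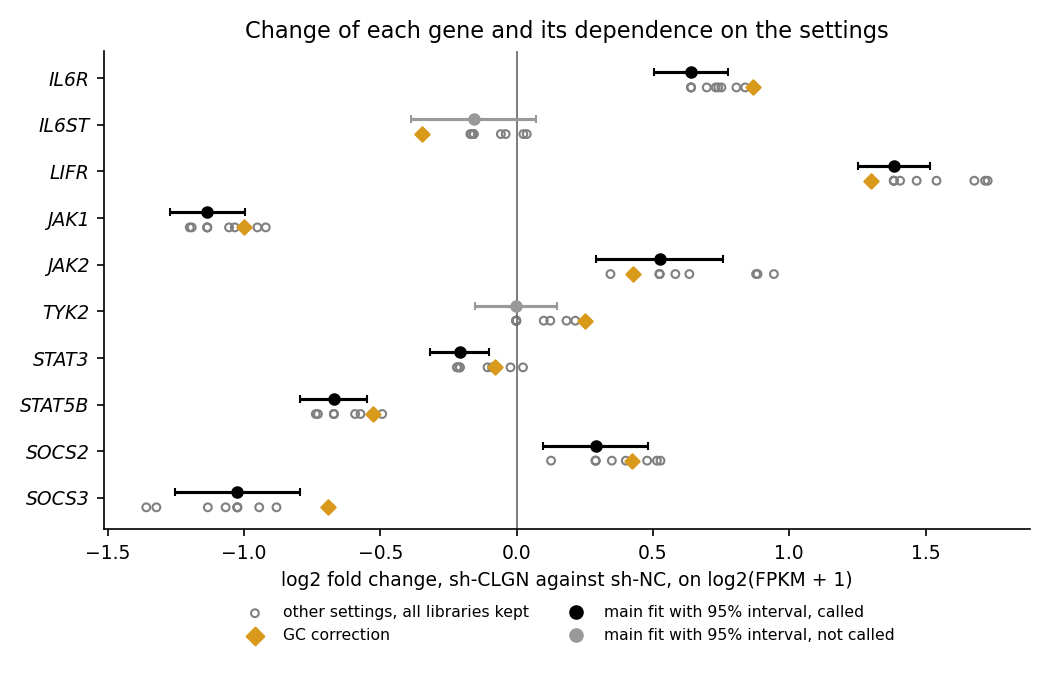
Log2 fold change of sh-CLGN against sh-NC on log2(FPKM + 1) for each gene; filled circles with bars are the fit with its 95% interval (black when called, grey when not), open circles the other processing settings with all 6 libraries, and diamonds the correction for GC content. LIFR, IL6R, JAK1, STAT5B and SOCS3 stay on their side of 0 in all settings plotted, while TYK2, STAT3 and IL6ST reach or cross it.

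Across all tested genes the log2 fold change went with GC content (Spearman rho -0.32 over 13068 genes, which share these libraries), with GC-rich genes lower in sh-CLGN. With this trend removed, LIFR was at 1.30, IL6R at 0.87, JAK2 at 0.43 and SOCS2 at 0.42, all still called higher. JAK1 was at -1.0 and STAT5B at -0.53, both still called lower. IL6ST, an AT-rich transcript with a GC content of 39.9%, was then called lower, at -0.35 (adjusted p = 0.00243).

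Because shares within a library do not depend on how libraries are scaled against each other, the make-up of each group of genes was compared as well. Shares can still depend on GC content, which differs within a group (68.1% for SOCS3 and 50.3% for SOCS2). No share was computed after GC correction. In the exact two-sided permutation test over the 6 libraries, each of the 10 shares gave p = 0.1, the smallest value that 3 against 3 can give, and no share overlapped between groups. The 10 shares are not separate results, since a change in any gene moves the shares of the others in its group. For the STATs and for the SOCS genes the shares mirror each other. The levels of 70.2% of all tested genes did not overlap either. Among the 3 kinases, JAK1 made up 60.3% ± 2.3 (SD, n = 3) of the summed FPKM in sh-NC and 38.8% ± 0.62 in sh-CLGN. TYK2 went from 37.7% ± 2.8 to 55.6% ± 0.46 and so took the place of JAK1 as the most abundant kinase transcript, at a level that was itself not called changed. JAK2 went from 1.96% ± 0.41 to 5.55% ± 0.17. The summed level of the kinases was 46.1 FPKM in sh-NC and 31.2 FPKM in sh-CLGN.

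Among the receptor chains, IL6ST held 69.5% ± 2.8 of the summed FPKM in sh-NC and 47.6% ± 0.92 in sh-CLGN. IL6R went from 19.9% ± 1.9 to 25.7% ± 1.0, and LIFR from 10.6% ± 0.86 to 26.7% ± 0.17. OSMR, a further chain that pairs with gp130, is outside these shares and is given with the other receptor chains. The summed receptor level was 22.3 FPKM in sh-NC and 28.9 FPKM in sh-CLGN. STAT3 held 62.6% ± 1.1 of the 2 STAT transcripts in sh-NC and 70.5% ± 0.56 in sh-CLGN, while their sum went from 35.5 to 27.1 FPKM. SOCS2 held 18.0% ± 1.9 of the 2 SOCS transcripts in sh-NC and 44.6% ± 3.3 in sh-CLGN, with sums of 6.0 and 3.44 FPKM.

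**Figure D3:**
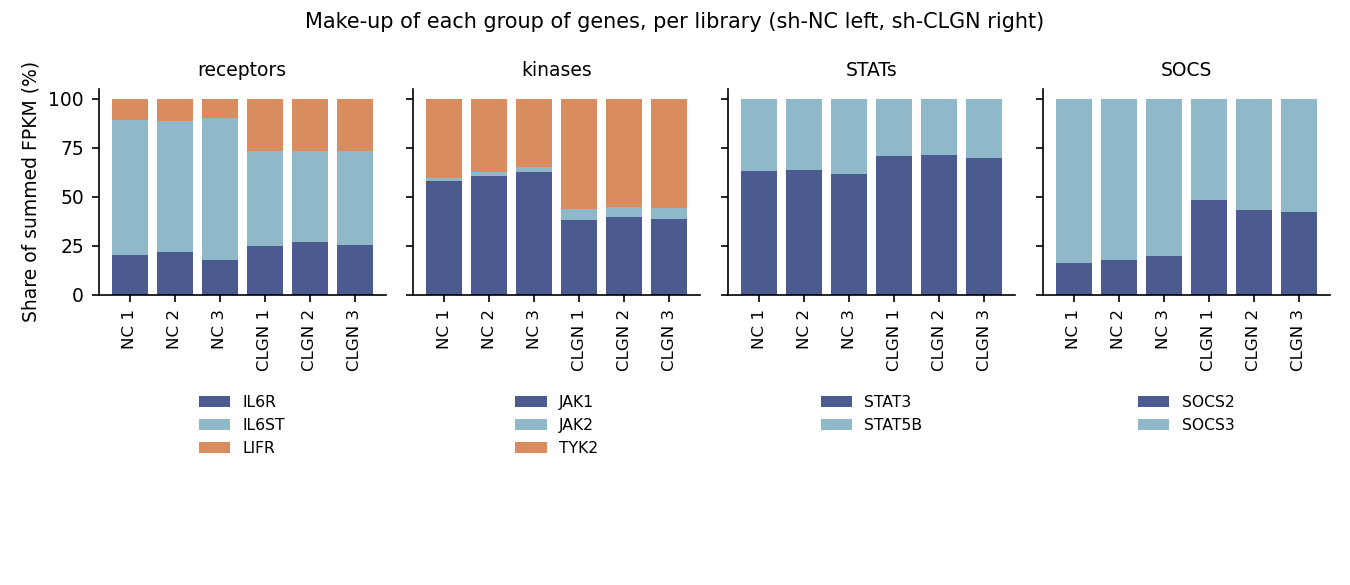
Share of each gene in the summed FPKM of its group (percent, bars stacked to 100), for receptors, kinases, STATs and SOCS genes; each bar is 1 library, sh-NC on the left and sh-CLGN on the right. The JAK1 share of the kinases is 57.9 to 62.6% in the sh-NC libraries and 38.2 to 39.4% in the others, and the SOCS2 share is higher in all 3 sh-CLGN libraries.

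Ordered by mean level in sh-NC, JAK1 led at 27.8 FPKM, followed by STAT3 at 22.2, TYK2 at 17.4, IL6ST at 15.6 and STAT5B at 13.3 FPKM. SOCS3 (4.93 FPKM), IL6R (4.40 FPKM), LIFR (2.35 FPKM), SOCS2 (1.07 FPKM) and JAK2 (0.903 FPKM) came lower. The library ranges of TYK2 and IL6ST, of IL6ST and STAT5B, of SOCS3 and IL6R, and of SOCS2 and JAK2 overlapped, so these neighbours were not separated. In sh-CLGN the order began with STAT3 at 19.1, TYK2 at 17.3, IL6ST at 13.7 and JAK1 at 12.1 FPKM, all separated. STAT5B (7.99 FPKM), LIFR (7.73 FPKM) and IL6R (7.42 FPKM) came next and could not be separated in turn. SOCS3 (1.91 FPKM) and JAK2 (1.73 FPKM) overlapped as well, and SOCS2 was last at 1.53 FPKM. JAK1 therefore went from first to below gp130, and LIFR from less than IL6R and SOCS3 to the range of IL6R and STAT5B.

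The other genes of the pathway were read from lists that held 110 genes beside the 10, of which 90 passed the filter, 25 were called higher, 44 lower and 21 were not called. Those shares, 27.8% higher and 48.9% lower, stand beside 26.7% and 39.0% of all tested genes. Of the 90, 5 reached 1 FPKM in 1 group only and so entered the test through the group where they are high, 2 of them called higher (IL11 and LEPR) and 3 lower (LBP, FOS and IL11RA). The median log2 fold change of all 90 was -0.20, beside -0.08 over all tested genes. Past a log2 fold change of 1, 3 of the 90 rose and 10 fell, beside 3.09% and 3.19% of all tested genes.

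Of 10 ligands and ligand partners of the interleukin-6 family, 5 were tested, 4 of them rose and 1 fell. Among all tested genes 26.7% were called higher and 39.0% lower, and 5 genes are few for such a comparison. LIF, the ligand of LIFR, fell from 5.69, 5.52 and 5.73 FPKM to 2.05, 1.69 and 2.40 FPKM (log2 fold change -1.13, adjusted p = 2.71e-05), opposite in direction to its receptor. IL11, which also signals through gp130, rose from 0.188, 0.103 and 0.0968 FPKM to 1.52, 1.32 and 1.95 FPKM (log2 fold change 1.20, adjusted p = 7.20e-05), from only a few reads in the sh-NC libraries. It passed the filter through the sh-CLGN group alone. EBI3, the shared subunit of interleukin-27, rose from a mean of 1.23 to 3.26 FPKM (0.94 on the log2 scale). IL6 itself was under the filter, at 0.0331 to 0.125 FPKM in sh-NC and 0.0299 to 0.228 FPKM in sh-CLGN, and OSM had no read in any library.

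Other cytokine receptor chains split evenly: of 18 genes 14 were tested, 6 rose, 6 fell and 2 were not called, with a median of -0.02. That is 42.9% in either direction, beside 26.7% higher and 39.0% lower among all tested genes. OSMR, the oncostatin M chain that pairs with gp130, fell from 14.5 to 8.99 FPKM (log2 fold change -0.63), opposite in direction to LIFR. IL4R, the interleukin-4 chain, fell from 21.9 to 9.14 FPKM (-1.17), and IL27RA fell from 7.88 to 5.54 FPKM (-0.44). EPOR, the erythropoietin receptor, rose from 4.91 to 9.87 FPKM (0.88). The interferon chains IFNAR1 and IFNGR1 rose by 0.36 and 0.34 on the log2 scale. Their partner chains went the other way, with IFNGR2 at 13.4 and 9.92 FPKM (-0.40, adjusted p = 0.00187) and IFNAR2, which was under the filter, at 1.14 and 0.542 FPKM.

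Among the relatives of the kinases, STATs and SOCS genes, 9 of 12 were tested, 3 rose, 2 fell and 4 were not called (median -0.01). Their shares were 33.3% higher and 22.2% lower, beside 26.7% and 39.0% of all tested genes. STAT2, which carries interferon signals, rose from 7.58 to 10.5 FPKM (0.42). SOCS7 fell from 6.89 to 3.01 FPKM (-0.98), and SOCS5 rose from 2.34 to 2.85 FPKM (0.21, adjusted p = 0.0483). The call of SOCS5 is fragile, being lost without the filter (adjusted p = 0.103), under quantile normalization (adjusted p = 0.165), after GC correction (adjusted p = 0.0594), with the replicate block (adjusted p = 0.102) and when any 1 library other than sh-NC replicate 3 was left out (adjusted p = 0.0513 to 0.173). Of 23 adaptors, phosphatases and ubiquitin ligase parts, 22 were tested, 4 rose, 9 fell and 9 were not called (median -0.05). Here 18.2% were higher and 40.9% lower, beside the same shares of all tested genes. SH2B3, an adaptor that restrains JAK2, fell from 25.4 to 13.4 FPKM (-0.87), PTPN1, a phosphatase of JAK2 and TYK2, from 31.7 to 20.1 FPKM (-0.63), and the adaptor GRB2 from 60.4 to 39.5 FPKM (-0.60). STAM2, the phosphatase gene PTPN11 and SOS1 rose by 0.38, 0.28 and 0.23 on the log2 scale, and the rise of SOS1 was 0.03 and no longer called after GC correction.

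The acute phase genes known as STAT3 targets in liver did not move as a block. Of 20 genes 16 were tested, 5 rose, 8 fell and 3 were not called (median -0.25), which is 31.2% higher and 50% lower beside 26.7% and 39.0% of all tested genes. CP (ceruloplasmin) fell from 26.7 to 9.93 FPKM (-1.34), LBP, which binds bacterial lipopolysaccharide, from 2.14 to 0.299 FPKM (-1.27), and HP (haptoglobin) from 8.70 to 3.17 FPKM (-1.22). LBP passed the filter through the sh-NC group alone. Complement C3 and the fibrinogen chain FGA fell by 0.86 and 0.83 on the log2 scale. HPX (haemopexin) rose from 26.8 to 47.9 FPKM (0.82), the fibrinogen chain FGB from 280 to 463 FPKM (0.72) and SAA2 from 1.01 to 2.11 FPKM (0.63). FGA and FGB, subunits of the same protein, thus went opposite ways, and SAA2 has a near-identical copy in SAA1, so its reads are uncertain.

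The STAT3 targets with regulatory roles were mostly lower. All 20 genes were tested, 16 fell, 2 rose and 2 were not called, with a median of -0.69. That is 80.0% lower and 10% higher, beside 39.0% and 26.7% of all tested genes. The immediate early genes IER3 (28.2 to 9.50 FPKM, -1.47) and JUNB (57.6 to 20.8 FPKM, -1.42) fell, as did ICAM1, an adhesion molecule (113 to 42.5 FPKM, -1.38). BCL2L1, an inhibitor of apoptosis, fell from 86.1 to 37.4 FPKM (-1.18), the transcription factor gene CEBPD from 56.9 to 27.3 FPKM (-1.03) and the growth factor gene VEGFA from 12.1 to 6.10 FPKM (-0.88). TIMP1, an inhibitor of matrix metalloproteinases, rose from 1.89 to 6.87 FPKM (1.46), and the kinase gene PIM1 from 5.94 to 9.33 FPKM (0.58). After GC correction these falls were smaller: IER3 -1.23, ICAM1 -1.14, JUNB -1.11, BCL2L1 -0.97, CEBPD -0.68 and VEGFA -0.64. The rises were larger, at 1.69 for TIMP1 and 0.79 for PIM1. CCND1 was then no longer called lower (-0.07, adjusted p = 0.324), while HIF1A (-0.11) became called lower and BCL6 (0.28) higher. Many of these genes, among them ICAM1, IER3 and BCL2L1, are also known targets of NF-kB, so the list is not particular to STAT3.

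Of 11 growth hormone and STAT5 targets, 7 were tested, 2 rose, 2 fell and 3 were not called (median -0.19). That is 28.6% in either direction, beside 26.7% higher and 39.0% lower among all tested genes. IGFBP3, a carrier of insulin-like growth factors, rose from 5.81 to 18.2 FPKM (1.5) beside SOCS2. FKBP5 fell from 2.48 to 1.30 FPKM (-0.60) and SPRY1 from 11.7 to 7.46 FPKM (-0.59). IGF1, the leading growth hormone target in liver, was at 0 or near it, at 0.0601 FPKM or less in every library.

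**Figure D4:**
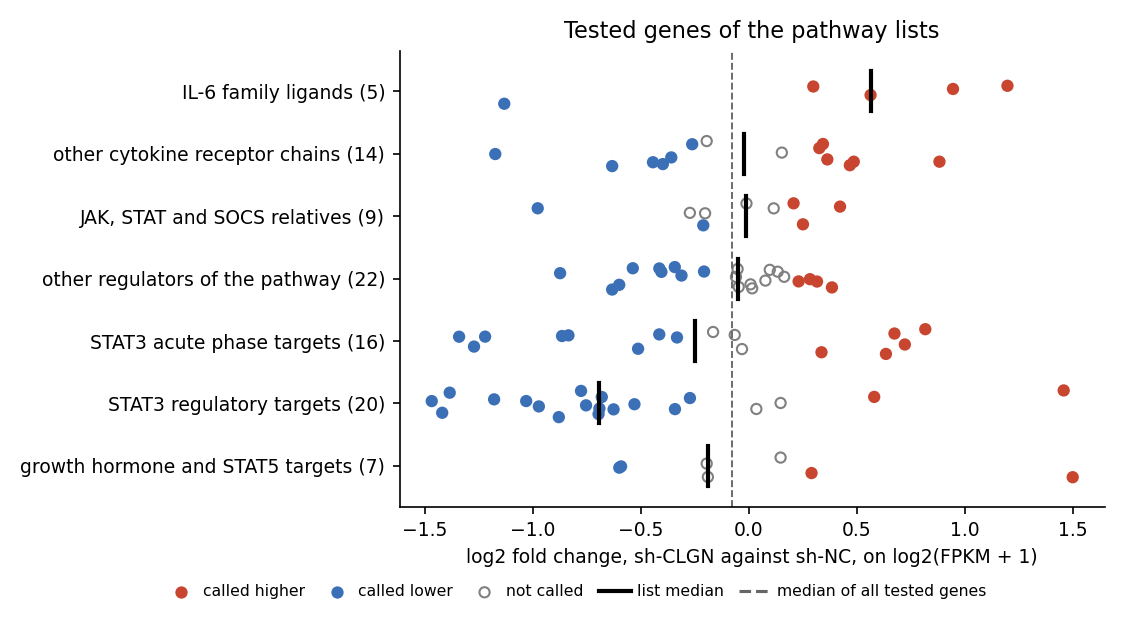
Log2 fold change of every tested gene in the 7 pathway lists (number tested in brackets), red for called higher, blue for called lower and open for not called; the thick bar is the list median and the dashed line the median of all tested genes. The STAT3 regulatory targets have the lowest median (-0.69), and the ligands are the only list whose median lies well above the dashed line (0.56). The ligand list has 5 tested genes, of which IL11 passed the filter through the sh-CLGN group alone.

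Genes that mark the hepatocyte also moved both ways: of the 12 genes on that list 3 rose, 7 fell and 2 were not called, which is 25.0% higher and 58.3% lower beside 26.7% and 39.0% of all tested genes. TF (transferrin) fell by 1.62, FOXA2 by 0.97 and ALB (albumin) by 0.90 on the log2 scale. TTR (transthyretin), AFP (alpha-fetoprotein) and APOA2 rose by 0.58, 0.50 and 0.26, and without the filter on low genes AFP (adjusted p = 0.0764) and APOA2 (adjusted p = 0.0959) were not called. These values accompany the falls of CP, HP and FGA, which are made by the same cells, and their part in those falls was not tested.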

How the data were processed

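RNA of 6 Hep-G2 libraries (3 sh-NC, 3 sh-CLGN) was sequenced after library preparation with the NEBNext Ultra kit. The submitters' processing notes name HISAT2 2.0.5, featureCounts and GRCh38. The authors deposited 1 FPKM value per gene and library with the gene lengths; all 58735 gene positions equal those of GENCODE 29. The files hold FPKM only, and the values times gene length gave whole reads in 100% of cases (tolerance 0.01), after a library size that was 0.933 to 0.953 of the read total for sh-NC and 1.07 to 1.08 of it for sh-CLGN; 0 sample columns were left unmapped.

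Genes that reached 1 FPKM in 3 or more libraries (13074) were tested on log2(FPKM + 1) with limma 3.58.1 (R 4.3.3; lmFit, eBayes with trend, two-sided) and Benjamini-Hochberg adjustment over all of them, calling at adjusted p of at most 0.05. Fold changes on this scale understate changes of low genes. Shares were compared by exact permutation (scipy 1.17.1). The script was tested on simulated data. The 10 genes and the lists were chosen with earlier results of these data known. Named list genes were the 3 with the smallest adjusted p in each direction among those called, plus those called past a log2 fold change of 1. Remarks on further genes (IL6, OSM, IGF1, IFNGR2, IFNAR2, LEPR, FOS, IL11RA, CCND1, HIF1A, BCL6 and markers) were chosen after their values were seen. Some genes that this rule names are not reported here. Alternatives were a pseudocount of 0.1, no filter, median-ratio, TPM, quantile and read-total scaling, no trend, voom on the recovered reads, a replicate block and leaving out each library. A GC correction (lowess, span 0.3) was added after seeing the data. Promoter sequences are from RefSeq (GRCh38.p14) and 3′ UTR sites from GENCODE 29 transcripts; UTR words follow the hairpin target given in the study's methods.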

Additional observations from a re-analysis of the deposited data

How the results depend on the processing

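Of the 10 genes, 7 to 9 were called under every alternative and with any 1 library left out (8 in the analysis reported), and IL6R, LIFR, JAK1, JAK2, STAT5B and SOCS3 kept direction and call in all of them. TYK2 turned positive under median-ratio scaling (0.10), TPM rescaling (0.12), quantile normalization (0.22), read totals (0.18) and GC correction (0.25), and ranged from -0.064 to 0.030 with 1 library left out. It was called under quantile normalization (adjusted p = 0.0117), read totals (adjusted p = 0.0276) and GC correction. IL6ST turned to 0.037 under quantile normalization and 0.025 under read totals, and STAT3 to 0.024 under quantile normalization. STAT3 was not called under either, median-ratio scaling, TPM rescaling or GC correction (adjusted p = 0.0787 to 0.694), nor SOCS2 under quantile normalization (0.13). JAK2 ranged from 0.34 to 0.94. STAT5A turned to 0.042 after GC correction. Some list genes moved by over 1.5 times while still called; among them IL11 reached 3.55, LBP -2.79, GRB2 -0.32, PTPN11 0.56, IL27RA -0.21, IFNGR1 0.20, STAM2 0.21 and CEBPD -0.68 at the far end of their ranges. With a pseudocount of 0.1 alone, IL11 was at 2.90 and LBP at -2.50. The values of IL27RA, IFNGR1, STAM2 and CEBPD are those after GC correction, and those of GRB2 and PTPN11 are from quantile normalization. Why these genes moved under those settings was not tested. Of 736 values for 46 named list genes, 713 kept direction and call and 1 reversed.

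The count of all genes past the test and a log2 fold change of 1 (821) was 1606 with a pseudocount of 0.1, 1426 with TPM rescaling and 1722 with voom, and 784 to 902 with 1 library left out. Of the 10 genes, 1 rather than 3 passed both limits under read totals. The count was 2 under median-ratio scaling, 2 under quantile normalization and 2 to 3 with 1 library left out. After GC correction SOCS3, at -0.69, did not reach the fold limit. The count of JAK, STAT and SOCS relatives past the test (5) was 3 without the filter, 3 with the replicate block and 3 to 6 with 1 library left out. The counts of 3 lacked the calls of SOCS5 and STAT5A, which both held in the fit that gave 6. Genes called higher and lower numbered 4216 and 4180 under median-ratio scaling, 4285 and 3923 under TPM rescaling, 4538 and 4708 without the filter. TPM rescaling moved the median of all genes by 0.11. As shares of recovered reads, the differences in points were 3.66 for IL6R, 20.3 for LIFR, 7.03 for STAT3, -7.03 for STAT5B, 31.4 for SOCS2 and -31.4 for SOCS3, beside 5.80, 16.2, 7.95, -7.95, 26.6 and -26.6 in FPKM.

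Equal replicate numbers did not pair the libraries: deviations from the group means correlated at -0.02, -0.05 and -0.15. With the replicate block 8038 genes were called in place of 8598, with 8 of the 10 genes, and the block changed no call among the 10. Depth limits JAK2, SOCS2 and SOCS3 most, with 60 to 208 reads per library.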
